A study of Arabidopsis thaliana with 4 samples.

Results

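CG methylation was examined in 8 genes that dividing cells need to copy their DNA: MCM2 (AT1G44900), MCM3 (AT5G46280), MCM4 (AT2G16440), MCM5 (AT2G07690), MCM6 (AT5G44635), MCM7 (AT4G02060), ICU2 (AT5G67100, polymerase alpha, POLA1) and TIL1 (AT1G08260, polymerase epsilon, POLE1). They were listed by locus, with no threshold on a measured value but with earlier results of these data known, and are 8 of 27444 protein-coding genes on the 5 nuclear chromosomes of Arabidopsis thaliana. Each was taken as its annotated gene in TAIR10 with 1 kb of sequence upstream of the start. Shoot apices had been treated for 24 h with 0.025% of the wetting agent Silwet, either alone (mock, 2 libraries) or with 1 mM of the nitric oxide donor sodium nitroprusside (SNP, 2 libraries). The labels give the genotype of all 4 libraries as Col-0, whereas the study's methods describe ap1/cal apices, a mutant in which meristems overproliferate, so every library, mock included, may carry those mutations. The assay, EM-seq, uses enzymes instead of bisulfite to convert unmethylated cytosines, which are then sequenced as T, and leaves methylated ones as C. Libraries came from whole apices, so that a change in the mix of cells and a change within cells cannot be told apart, and lists of methylated sites hold no markers by which the tissue could be checked.

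MCM2 to MCM7 form a ring-shaped helicase that is loaded on DNA at replication origins and unwinds it when the fork starts to move. Polymerase alpha, together with primase, starts new DNA strands, and polymerase epsilon extends the leading strand. The bodies of many plant genes that are active in most cells carry methylation at CG only, which MET1 copies to the new strand after each round of replication, whereas methylation at CHG and CHH (H being A, C or T) marks transposons and repeats.

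Between 3857352 and 4134559 nuclear cytosines were listed as methylated per library, with between 42221751 and 50875710 reads at them and a median depth of 8 to 10 reads at CG sites, lowest in SNP 2. The lists hold called sites, each with at least 2 methylated reads. A cytosine that is absent may have been uncovered or covered and not called, so that a complete loss of methylation at a site is not visible as a level. The labels do not state that the replicates were separate sets of plants, while the study's methods speak of 2 biological replicates. The p-values measure the spread between these libraries. With 2 libraries against 2, the exact two-sided permutation test of a single value cannot give a p below 0.333, and adjusted p-values below therefore come from a fit over all gene bodies.

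All 8 genes were CG-methylated inside the body. As a share of all CG cytosines of the gene on both strands, listed sites made up on average 42.2% in MCM5, 33.6% in TIL1, 31.3% in MCM2, 30.1% in MCM3, 25.6% in MCM6, 21.7% in MCM4, 21.1% in ICU2 and 19.3% in MCM7. Over the 4 libraries the share ranged from 40.7% to 43.4% in MCM5 and from 17.8% to 20.8% in MCM7. In this order, the ranges of the neighbours TIL1 and MCM2, MCM2 and MCM3, MCM4 and ICU2, and ICU2 and MCM7 overlapped. The median over 26590 protein-coding genes with at least 20 CG cytosines was 8.26%. These replication genes are long, and over the 3250 genes of at least 4000 bp the median was 34.1%, a value that only MCM5 exceeded. In TIL1 the listed share was 32.3% and 32.8% in mock 1 and mock 2 and 35.1% and 34.3% in SNP 1 and SNP 2. In MCM6 it was 25.6% and 22.7% in mock and 27.9% and 26.2% in SNP. Thus both SNP libraries listed more CG sites than both mock libraries in 2 of 8 genes, where 14.8% of all genes did so, and fewer in 0 of 8, where 9.42% did so.

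Calls were repeatable across the libraries. Of 770 distinct CG cytosines listed in any library, 610 (79.2%) were listed in all 4, compared with 71.0% over all protein-coding genes, and 123 were listed in a single library. The mock pair alone listed 2 sites and the SNP pair alone 12, of which 8 were in TIL1. Over all protein-coding genes 4344 sites were listed by the mock pair alone and 9003 by the SNP pair alone.

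To locate this methylation, each body was divided from start to end into 10 equal bins and the upstream kilobase into 5 bins of 200 bp. None of the 8 genes had a CG called in all 4 libraries in the first bin of the body, although that bin is the richest in CG, with 575 of the CG cytosines of the 8 bodies. In bin 2 the share called was 10.1%, in bins 3 to 9 it lay between 40.1% and 51.2%, and in bin 10 it fell to 4.28%, all 8 sites of which were in TIL1. Over all protein-coding genes the share was 2.58% in bin 1, rose to 28.6% in bin 7 and was 11.7% in bin 10. Measured in bases, the called stretch began farther from the start than it ended from the end in all of the genes but ICU2. It began at 907 bp in MCM3, 1045 bp in MCM6, 1049 bp in MCM2, 1054 bp in MCM5, 1375 bp in ICU2, 1558 bp in MCM4, 1703 bp in MCM7 and 2827 bp in TIL1. In ICU2 the last called CG lay 1704 bp before the end, and in the other genes between 562 and 1445 bp before it.

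**Figure D1:**
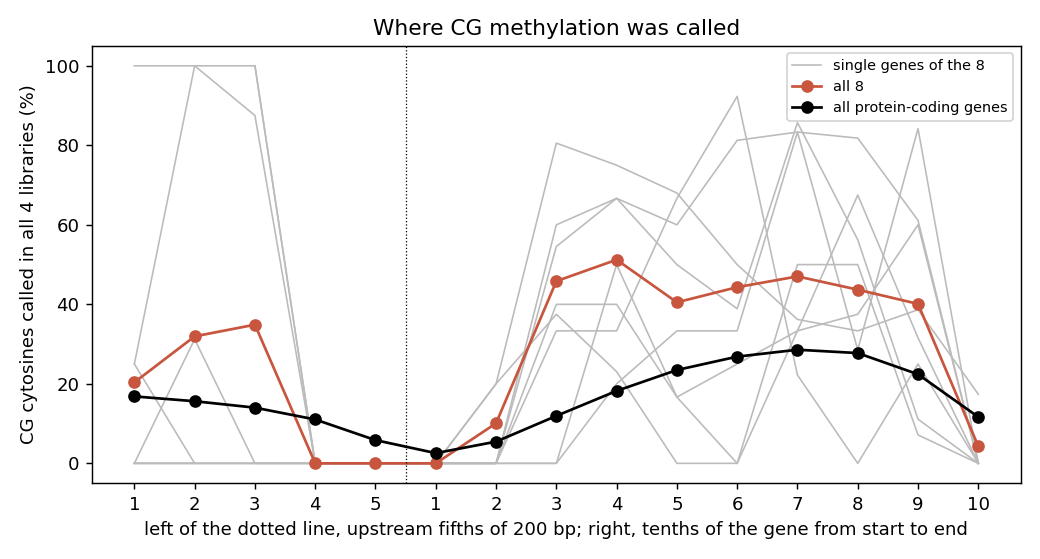
Share of CG cytosines called in all 4 libraries (%, y axis) in 5 upstream bins of 200 bp and 10 bins of the gene body (x axis), for each of the 8 genes (grey), the 8 together (red) and all protein-coding genes (black). The red line is at 0% in the upstream bins 4 and 5 and in body bin 1, and between 40.1% and 51.2% in body bins 3 to 9.

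Within this stretch the genes differed from each other. ICU2 had 2 methylated blocks separated by 2050 bp without a called CG, which left 0 of 34 and 0 of 26 CG cytosines called in its bins 5 and 6. The largest gap was 1244 bp in TIL1, 946 bp in MCM6, 823 bp in MCM3, 669 bp in MCM7 and 493 bp in MCM4, whereas it was 347 bp in MCM5 and 358 bp in MCM2. Exons and introns were both methylated, with 25.5% of 1851 exonic and 30.1% of 459 intronic CG cytosines called in all 4 libraries, compared with 16.6% and 20.4% over all protein-coding genes. MCM5 stood at one end, with 67.7% of its 31 intronic CG cytosines called, and MCM7 at the other, with 5.48% of 73. A long 5′ intron of MCM7, visible in the map of sites along the genes, lay in the part without called sites. Neighbouring genes overlap the ends of MCM7 (STP7, 437 bp at the start), ICU2 (ALC, 1326 bp at the end) and TIL1 (ADT6, 1756 bp at the start, and AT1G08270, 624 bp at the end). The called sites lay outside these overlaps. The annotation marks the models of MCM6, ICU2 and TIL1 as partial, so their starts and ends are less sure than the others.

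**Figure D2:**
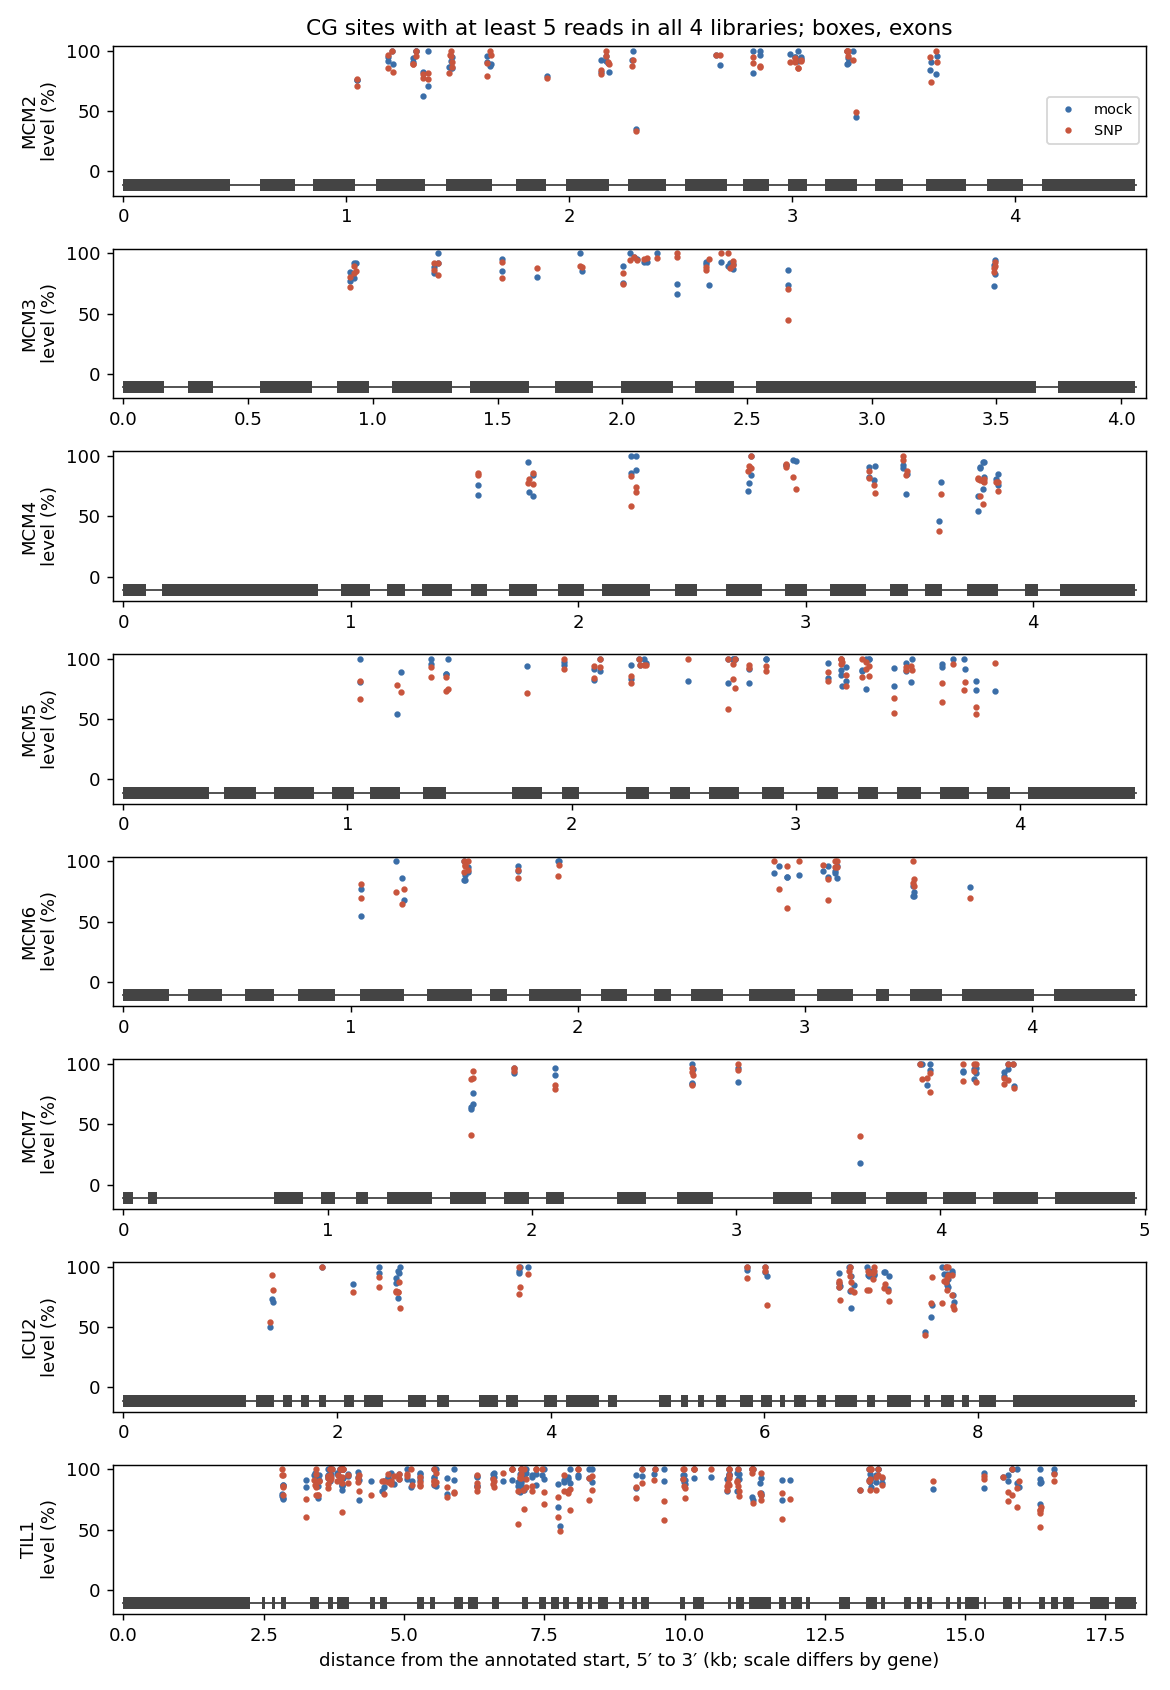
CG sites covered by 5 or more reads in each library, plotted by distance from the annotated start (x axis, kb) against methylation level (y axis, %) as the mean of 2 mock (blue) and 2 SNP (red) libraries; boxes mark exons. Sites crowd near full methylation away from the start of each gene, with the 2050 bp gap of ICU2 and the isolated low site of MCM7 at 3605 bp standing out.

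The stretches below show what these called sites look like in the sequence. The sequences are those of the reference (TAIR10, RefSeq), read 5′ to 3′ along the gene. A capital C was called methylated in all 4 libraries on the printed strand, and a capital G on the opposite strand, so that a CG called on both strands appears as CG. The window of MCM5 (chr2:3524201-3524400, minus strand, 110 bp exonic) and the window of TIL1 with the most called CG (chr1:2592401-2592600, plus strand, 89 bp exonic) hold scattered CG called on both strands and no called cytosine in another context. The TIL1 window near the 3′ end (chr1:2605001-2605200, plus strand, 23 bp exonic) is shown because it had the smallest p among the windows of TIL1, and was chosen after its values were seen.
MCM5 body: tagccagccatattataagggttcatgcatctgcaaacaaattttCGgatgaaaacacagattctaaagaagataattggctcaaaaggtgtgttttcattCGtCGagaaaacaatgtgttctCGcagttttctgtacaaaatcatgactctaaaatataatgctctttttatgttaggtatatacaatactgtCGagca
TIL1 body: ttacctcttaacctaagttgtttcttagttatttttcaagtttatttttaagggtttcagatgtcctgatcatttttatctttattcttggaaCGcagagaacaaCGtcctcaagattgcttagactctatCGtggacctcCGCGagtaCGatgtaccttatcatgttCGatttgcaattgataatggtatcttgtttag
TIL1 3′ end: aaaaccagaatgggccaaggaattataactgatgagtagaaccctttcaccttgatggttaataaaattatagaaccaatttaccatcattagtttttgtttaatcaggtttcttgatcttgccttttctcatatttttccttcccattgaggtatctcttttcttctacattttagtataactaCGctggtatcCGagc

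In the MCM5 window 10 cytosines were called, and their level was 85.3% and 93.9% in mock 1 and mock 2 and 92.0% and 90.9% in SNP 1 and SNP 2. The 14 cytosines of the TIL1 body window, all 7 CG of the window on both strands, stood at 97.5% and 94.7% in mock and 93.0% and 95.2% in SNP. The treatments overlapped in both.

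To compare mock with SNP, the CG body level was calculated as methylated reads over all reads at CG sites covered by 5 or more reads in each of the libraries. This left 32 sites in MCM6 and MCM7, 38 in MCM3, 39 in MCM4, 57 in MCM2, 59 in ICU2, 61 in MCM5 and 197 in TIL1. Between 289 and 728 reads per library stood behind each level, and between 2063 and 2513 in TIL1. A read that spans several sites is counted at each, which can make p-values too small. How far this affects the fit over all gene bodies, which estimates the spread between libraries, was not tested. Differences are given in percentage points, as SNP minus mock.

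TIL1, the catalytic subunit of polymerase epsilon, had a lower CG body level after SNP. The mock libraries were at 92.1% and 91.9%, and SNP 1 and SNP 2 at 87.5% and 89.1%. The SNP pair lay below the mock pair, with means of 92.0% ± 0.151 and 88.3% ± 1.18 (SD, n = 2) and a difference of -3.67 points, larger than the pooled SD of the replicates of 0.842. TIL1 passed the threshold, with an adjusted p of 0.0363 (edgeR quasi-likelihood test, Benjamini-Hochberg over 13379 gene bodies). The call depended on single libraries, as the adjusted p in edgeR was 0.435 without SNP 1, 0.114 without mock 1, 0.0579 without mock 2 and 0.0243 without SNP 2. It also depended on the depth, since it was 0.429 with at least 10 reads per site, where 29 sites remained. With 1 kb upstream added to the body the adjusted p in edgeR was 0.0617 for CG and 0.110 for all contexts. TIL1 has a paralog, TIL2, and reads that both could have produced may have been placed at either.

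ICU2, the catalytic subunit of polymerase alpha, showed levels of 91.9% and 86.6% in mock 1 and mock 2 and of 83.9% in both SNP libraries. The SNP libraries lay below both mock libraries, which themselves differed by more than the gap between mock 2 and SNP. The difference was -5.36 points with a pooled SD of 2.63, and the adjusted p in edgeR of 0.0937 did not pass the threshold of 0.05. Without mock 2 it was 0.0328, with a difference of -7.56 points, and without mock 1 it was 0.716, with a difference of -2.35 points. The value rested on the depth minimum, since with at least 10 reads per site 5 sites remained and the difference was -0.50 points.

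Among the helicase subunits, MCM5 had the largest difference. Its level was 91.2% and 91.6% in mock and 86.4% and 86.0% in SNP. The groups did not overlap, and the difference was -5.25 points with a pooled SD of 0.288, which rests on 2 libraries per group. The adjusted p in edgeR was 0.0684 (unadjusted 0.00446) and did not pass. With at least 10 reads per site 7 sites remained, the difference was -3.93 points and the adjusted p in edgeR was 0.719.

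The levels of the other 5 subunits overlapped between mock and SNP. MCM4 was the least methylated, with 85.6% and 82.2% in mock and 77.8% and 83.0% in SNP, which differed by -3.49 points with a pooled SD of 3.08. Without single libraries this value went from -6.55 (without mock 2) to -0.90 (without SNP 1). MCM2 had 88.2% and 90.2% in mock and 89.5% and 87.0% in SNP. MCM7 had 90.1% and 86.2% in mock and 86.2% and 88.4% in SNP. SNP was set apart from mock in neither, and the differences were -0.95 and -0.81 points, smaller than the pooled SDs of 1.62 and 2.24. MCM3 had 89.1% and 87.5% in mock and 89.5% and 88.2% in SNP, a difference of 0.54 points. MCM6 had 87.0% and 86.0% in mock and 85.6% and 89.6% in SNP, a difference of 1.13 points. The direction turned in MCM6 without SNP 2 (-4.26), with all listed sites (-1.07) and with sites taken whatever the other libraries listed (-6.89), and in MCM3 without SNP 1 (-0.13) and with the latter sites (-2.46). It also turned in MCM2 and MCM7 when single libraries were left out, to at most 0.54 and 0.44 points. The adjusted p of these 5 genes in edgeR lay between 0.534 and 0.914. The genes also lay close to each other, since all mock means but that of MCM4 (83.9% ± 2.38) fell between 86.5% and 92.0%.

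**Figure D3:**
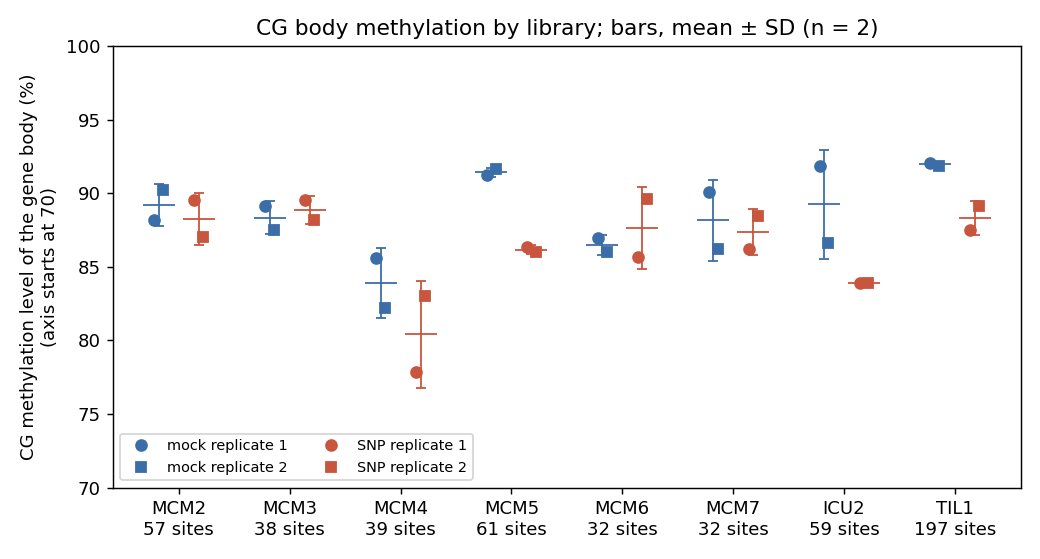
CG methylation level of the gene body (y axis, %, starting at 70) in each library for the 8 genes (x axis, with the number of sites); horizontal bars and whiskers are the mean ± SD of 2 libraries. Both SNP points (red) lie below both mock points (blue) in MCM5, ICU2 and TIL1, while the points of the other 5 genes overlap.

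These differences were set against all gene bodies, because most bodies were lower in SNP. The median difference over 13379 bodies was -2.68 points, with a median level of 87.7% in mock and 84.4% in SNP, and the median over the 8 genes was -2.22 points. Lower levels that passed the threshold were found in 664 bodies, 4.96% of those tested, and in 1 of the 8 genes. Higher levels passed in 8 bodies (0.0598%) and in 0 of the 8 genes, of which 3 of 8 had an unadjusted p below 0.05, as did 20.6% of all bodies. TIL1 is among the bodies with many sites, and of the 609 bodies with at least 100 sites, a limit set after its value was seen, 60 (9.85%) were called lower, with a median difference of -1.69 points. Both SNP libraries lay below both mock libraries in 3 of the 8 genes and in 44.3% of all bodies, and above them in 0 of 8 and in 6.25% of all bodies. These shares lie close to those of gene bodies in general and single out nothing in the 8 genes. In order, 28.6% of all bodies had a lower difference than ICU2, 29.2% than MCM5, 40.6% than TIL1 and 42.0% than MCM4, whereas MCM2, MCM7, MCM3 and MCM6 stood between 68.5% and 85.3%. The number of bodies called also varied with the libraries, from 152 without SNP 1 to 518 without mock 2.

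**Figure D4:**
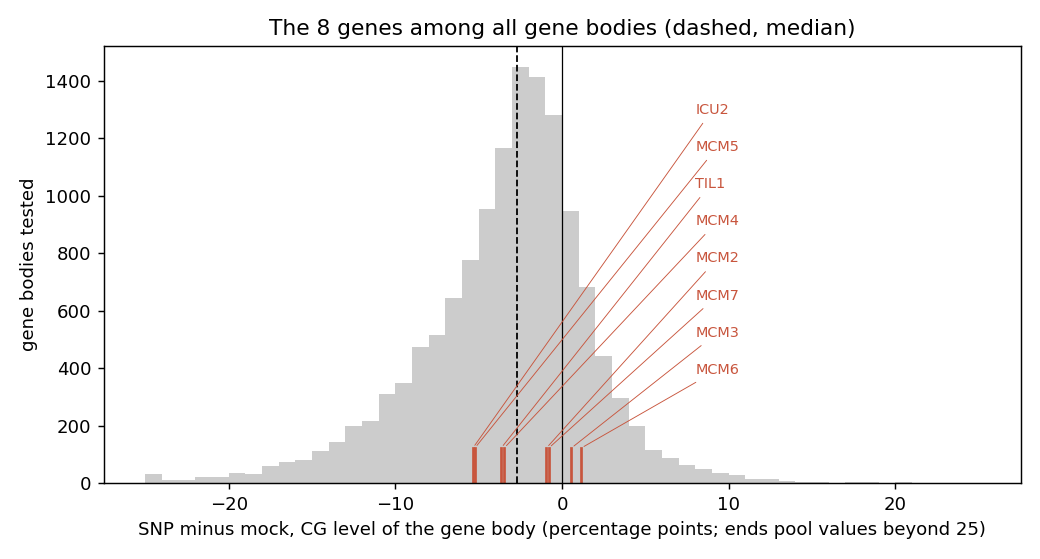
Histogram of SNP minus mock in CG body level (x axis, percentage points) over the 13379 gene bodies tested (y axis, number of bodies), with the 8 genes marked in red and the median of -2.68 dashed. ICU2, MCM5, TIL1 and MCM4 lie below the median and MCM2, MCM7, MCM3 and MCM6 above it, all within the bulk of the histogram.

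The lower level of TIL1 was spread along the gene. Of its 9 body bins with called sites, 8 had a lower mean in SNP, with bin 8 as the exception. The largest difference was in bin 10, where 8 sites stood at 87.4% and 93.5% in mock and 65.4% and 78.2% in SNP. MCM5 had a lower mean in SNP in 6 of 7 bins. Its bin 9 was at 91.7% and 88.9% in mock and 75.3% and 72.9% in SNP, and its bin 4 at 93.1% and 96.5% in mock and 82.8% and 79.1% in SNP. ICU2 was lower in 5 of 6 bins, and in bin 2, closest to the start, the level was 67.6% and 81.4% in mock and 81.5% and 79.6% in SNP. The counts were 4 of 6 in MCM3, MCM4, MCM6 and MCM7 and 3 of 7 in MCM2. Pooled over all protein-coding genes, both SNP libraries lay below both mock libraries in every body bin. In bin 4 the pooled levels were 86.7% and 86.3% in mock and 83.2% and 83.7% in SNP. A lower level in most bins therefore does not set TIL1, MCM5 or ICU2 apart.

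To narrow this down, 200 bp windows with at least 3 such sites were tested in the same way. None of the 78 windows of the 8 genes passed in edgeR, where 4 of 140536 windows genome-wide did (0.00285%), and 4 of 78 had an unadjusted p below 0.05, compared with 6.79% of all windows. The window of TIL1 near its 3′ end, printed above, had 4 sites at 81.5% and 93.2% in mock and 57.1% and 69.7% in SNP, a difference of -23.9 points with 33 to 54 reads per library. A second window of TIL1, centred 15846.5 bp from the start, had 6 sites at 98.1% and 91.7% in mock and 76.8% and 87.3% in SNP. There and near the 3′ end, each SNP library was lower than each mock library. A window of MCM4 centred 2228.5 bp from the start was at 100% and 87.5% in mock and at 69.2% and 76.7% in SNP. The fourth window went the other way, since MCM3 at 2205.5 bp had 76.6% and 84.8% in mock and 95.0% and 100% in SNP over 3 sites. Adjusted p-values of these 4 windows in edgeR lay between 0.640 and 0.711. The SNP pair lay below the mock pair in 28 of these 78 windows, a larger share than the 23.4% of all windows genome-wide. It lay above in 6 of 78, a smaller share than the 14% genome-wide. Windows genome-wide include those outside genes, and these shares were not tested against each other.

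Single sites were mostly near full methylation. Pooled over the libraries, 270 of 515 sites (52.4%) were at 90% or more, compared with 52.5% over all protein-coding genes, and 5 were below 50%. MCM4 had the fewest, with 6 of 39 sites at 90% or more and a median site level of 82.5%, while the medians of the other genes lay between 88.2% and 92.0%. At 102 of 515 sites the SNP pair lay below the mock pair (19.8%, compared with 17.3% of all sites), and at 52 sites above (10.1%, compared with 9.15%). The 2 directions were most unequal in TIL1 (45 sites lower, 15 higher), MCM5 (14 and 3) and ICU2 (13 and 3), and even in MCM6 and MCM7 (6 and 6 in each). With a median of 10 to 12 reads per site and library, a single site does not resolve a difference of a few points.

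The 2 strands of a CG were usually called together. Of 1155 CG pairs in the 8 bodies, 297 were called in all 4 libraries on both strands and 16 on 1 strand, 8 of them in ICU2. Where both were called, the median absolute difference between the strands was 4.46 points. Of the 16 sites called on 1 strand, 4 were below 50% methylated. The lowest was in MCM7, 3605 bp from the start, with 16.7%, 20%, 23.1% and 57.1% in mock 1, mock 2, SNP 1 and SNP 2 at 7 to 13 reads. At a site of MCM2, 2299 bp from the start, the level was 42.9% and 27.3% in mock and 37.5% and 30% in SNP. SNP 2 stood apart at the MCM7 site, and the treatments overlapped at the MCM2 site. At each of these 4 sites the partner cytosine on the other strand was listed in 2 of the 4 libraries.

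The bodies carried no repeatable methylation outside CG. Of 130 CHG and 443 CHH cytosines listed in any library, 0 were listed in all 4, and 5 and 6 in more than 1 library. Of these entries, 90.4% in CHG and 92.2% in CHH had exactly 2 methylated reads. Some were clustered on 1 strand of a single library. In mock 2, MCM5 had 24 listed non-CG cytosines within 250 bp on the plus strand, all with exactly 2 methylated reads of 10 to 15, and ICU2 had 20 within 133 bp on the minus strand, all with 2 of 9 to 14. Both stretches were listed in mock 2, the library with the most listed non-CG cytosines in the 8 bodies (48 CHG and 175 CHH).

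Upstream of the start, the 2 bins of 200 bp nearest to it held no CG called in all 4 libraries in any of the genes, 0 of 51 and 0 of 87 CG cytosines. Farther upstream 3 patterns were seen. TIL1 had a patch with methylation in all contexts. MCM2 had a patch with CG and CHH, and the only CHG listed in its kilobase was listed in mock 1, mock 2 and SNP 1. MCM5, MCM3 and MCM6 had 4 or 5 called CG each. In MCM5, 1 called CHG lay beside them (62.5% and 27.8% in mock, 33.3% and 25% in SNP, at 6 to 18 reads). The called CG of MCM3 and MCM6 lay inside the neighbouring genes KASI and BGLU13, which overlap 651 and 522 bp of these upstream kilobases. ICU2, MCM4 and MCM7 had no cytosine called in all 4 libraries, and STP7 overlaps all 1000 bp upstream of MCM7. The 200 bp windows with the most called cytosines of TIL1 (chr1:2588201-2588400, plus strand, 454 to 653 bp upstream) and MCM2 (chr1:16969401-16969600, plus strand, 614 to 813 bp upstream) are printed to show the contrast with the CG-only bodies, with capitals as above but for all contexts.
TIL1 upstream: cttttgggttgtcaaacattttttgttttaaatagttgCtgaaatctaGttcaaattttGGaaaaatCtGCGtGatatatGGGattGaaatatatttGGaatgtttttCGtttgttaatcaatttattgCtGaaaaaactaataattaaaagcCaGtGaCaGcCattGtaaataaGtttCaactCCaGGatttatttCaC
MCM2 upstream: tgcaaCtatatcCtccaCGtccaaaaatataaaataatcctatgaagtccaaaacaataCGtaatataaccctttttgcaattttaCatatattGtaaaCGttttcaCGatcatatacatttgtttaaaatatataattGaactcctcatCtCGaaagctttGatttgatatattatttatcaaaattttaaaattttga

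In the TIL1 window 4 CG, 11 CHG and 19 CHH cytosines were called, and in the MCM2 window 10 CG, 0 CHG and 7 CHH. The sequence of the MCM2 window contains no CHG, so its count of 0 says nothing on CHG methylation. Over the whole upstream kilobase of TIL1, 26 CG cytosines were called between 544 and 998 bp from the start. They stood at 95.6% and 95.7% in mock and 93.8% and 93.0% in SNP. SNP was thus lower in both libraries, with a difference of -2.28 points. Pooled over all protein-coding genes, both SNP libraries also lay below both mock libraries in every upstream bin. In upstream bin 1 the pooled levels were 81.7% and 81.4% in mock and 78.7% and 79.5% in SNP. The 19 CHG cytosines of TIL1 stood at 74.9% and 78.9% in mock and 67.7% and 75.4% in SNP. Its 26 CHH cytosines stood at 47.1% and 61.0% in mock and 49.7% and 59.6% in SNP. The treatments overlapped in CHG and CHH. In MCM2, 21 CG cytosines 454 to 823 bp upstream were at 90.5% and 84.5% in mock and 86.2% and 89.6% in SNP, which overlapped. The 7 CHH cytosines of MCM2 were at 30.3% and 29.1% in mock and 48.9% and 35.4% in SNP, higher in both SNP libraries, by 12.5 points against a pooled SD of 6.79, with 65 to 92 reads per library. They were the only ones listed in all 4 libraries, of 74 CHH cytosines listed upstream of MCM2 in any library. The numbers listed were 38 and 39 in mock 1 and mock 2 and 43 and 38 in SNP 1 and SNP 2. MCM5 had 39, 30, 43 and 7 listed CHH cytosines upstream in mock 1, mock 2, SNP 1 and SNP 2, and TIL1 had 74, 75, 56 and 38. Both lists were shortest in SNP 2, the library with the fewest reads, whose part in these counts was not tested. None of these upstream values was tested on its own.

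Genes of the S phase are known targets of E2F transcription factors, whose usual binding words contain a CG. The words TTTCCCGC, TTTGGCGC, TTTCGCGC and TTTGCCGC were searched on both strands from 250 bases before to 50 after each annotated start. At least 1 was found in 6 of the 8 genes, MCM2 to MCM6 and ICU2, and in 483 of 27443 promoters of the same length (1.76%). MCM2, MCM5 and MCM6 hold TTTCCCGC with its base farthest from the start 14, 19 and 46 bases before it, MCM3 and MCM4 hold TTTGGCGC at 170 and 35 bases, and ICU2 holds both, at 51 and 70 bases. MCM7 and TIL1 hold none of the words in this window, which says nothing on E2F binding there. The CG cytosines of these words were listed as methylated in 0 of 4 libraries. The 250 bases before the start of ICU2 (chr5:26776703-26776952, plus strand) are printed with both words in capitals, TTTGGCGC being read on the opposite strand.
ICU2 promoter: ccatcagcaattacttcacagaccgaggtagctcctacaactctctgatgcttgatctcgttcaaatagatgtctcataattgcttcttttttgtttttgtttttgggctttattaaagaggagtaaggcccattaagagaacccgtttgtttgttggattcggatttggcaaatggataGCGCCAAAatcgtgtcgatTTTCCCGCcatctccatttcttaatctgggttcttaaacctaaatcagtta

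None of the 8 CG of this stretch was listed on either strand in any library, in contrast to the body of the same gene. A match of letters is a description and not a site of binding.

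Finally, 35 other replication genes were examined in the same way, among them origin recognition subunits, loading factors, CDC45, GINS, other polymerase subunits and fork proteins. More than 10% of the CG cytosines were listed in 25 of the 35, and fewer than 2% in 4, and all 8 genes described above exceeded 10%. Over all genes with at least 20 CG cytosines 47.2% exceeded 10%, and 84.7% of those of at least 4000 bp did so. The highest shares were 57.2% in RFC1, the large subunit of the clamp loader, 54.0% in AT5G26680 and 50% in ORC5, a subunit of the origin recognition complex. Of 26 genes with enough sites to be tested, 0 passed in edgeR and 4 had an unadjusted p below 0.05, where 20.6% of all bodies did so. The level was lower in SNP in 18 and higher in 8, with a median difference of -1.72 points. The SNP pair lay below the mock pair in 10 of the 26 genes and above it in 3 of the 26. The shares over all bodies tested, given above, were 44.3% and 6.25%.

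The largest difference of the list was in POLA2, the B subunit of the polymerase alpha complex in which ICU2 is the catalytic subunit. Its level was 90.3% and 87.7% in mock and 81.1% and 79.9% in SNP, which did not overlap, with a difference of -8.51 points (edgeR adjusted p 0.0993). TTN10, listed here with the GINS complex, had 91.5% and 96.1% in mock and 83.6% and 89.7% in SNP over 8 sites, a difference of -7.18 points (edgeR adjusted p 0.455). TIL2, the paralog of TIL1, had 87.6% and 78.1% in mock and 77.1% and 75.1% in SNP, a difference of -6.74 points (edgeR adjusted p 0.255). In all 3 genes the SNP pair lay below the mock pair, and none passed the threshold. POLD2, a subunit of polymerase delta named after its values were seen, went the other way, with 88.3% and 89.5% in mock and 93.0% and 95.8% in SNP, a difference of 5.49 points (edgeR adjusted p 0.123).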

How the data were processed

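EM-seq libraries of mock and SNP shoot apices (2 each) were analysed from lists of sites, which the authors extracted with the Bismark methylation extractor at default parameters; FastQC is also named in the submitters' processing notes. Each deposited row holds the methylated fraction of a cytosine and its read count. The submitters' processing notes name TAIR10 as the genome build. The aligner, versions and calling rule are not given in the sources used here. All nuclear positions matched a cytosine of the listed strand in the RefSeq copy of TAIR10, whose gene models and sequences were used. Level times depth was whole at 100% of sites, giving methylated counts.

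CG sites that had 5 or more reads in each library were summed per gene body (at least 5 sites) or 200 bp window (at least 3). The study's minimum of 10 reads was an alternative. Methylated and unmethylated counts were tested in edgeR 4.0.16 (limma 3.58.1, R 4.3.3; quasi-likelihood, a term per library) over all protein-coding genes, with Benjamini-Hochberg adjustment and a threshold of 0.05. The fit was tested on simulated data. Scipy 1.17.1, pandas 2.3.3, numpy 2.4.6 and matplotlib 3.10.9 were used in python 3.11.15. Members and lists were chosen with earlier results of these data known. All 8 genes are named. Of the 35 other replication genes, the 3 with the largest difference and the 3 with the highest listed share are named, since none passed. POLD2 is named besides these, after its values were seen.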

Additional observations from a re-analysis of the deposited data

How the results depend on the processing

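The TIL1 call changed with the setting. Its difference was -3.84 points with at least 10 reads per site, -3.55 with CG of body plus 1 kb, -3.70 with all contexts of body plus 1 kb and -3.67 with the replicate block (edgeR adjusted p 0.0601), and it passed in none of these. Over all its alternatives the adjusted p ranged from 0.0120 to 0.435. Replicate numbers name no shared set of plants, and deviations of same-numbered libraries did not go together (r = -0.0018 across 13379 gene bodies). Of the 8 genes, 3 passed when pooled reads were compared by Fisher's exact test and groups did not overlap, and 0 with either region of body plus 1 kb or with the block. With at least 10 reads 0 of the 5 that could be tested passed (MCM4, MCM6 and MCM7 had too few sites). Fisher's exact test treats the pooled reads as independent, so its p does not measure the spread between libraries. Gene bodies called were 3505 by Fisher's exact test, 366 with CG and 310 with all contexts of body plus 1 kb, and 0 of 4236 in edgeR with at least 10 reads, where 520 had an unadjusted p below 0.05. Windows called were 12 with the block, 9 with all listed sites and 0 with at least 10 reads. Without a single library, the ranges were 152 to 518 gene bodies called, 0 to 1 of the 8 genes, 0 to 15 windows and -4.43 (without SNP 2) to -1.57 (without SNP 1) points for the median of the 8 genes. Per gene they were -2.23 to 0.54 in MCM2, -0.13 to 1.57 in MCM3, -6.55 to -0.90 in MCM4, -5.40 to -4.60 in MCM5, -4.26 to 3.47 in MCM6, -1.91 to 0.44 in MCM7, -7.56 to -2.35 in ICU2 and -5.27 to -2.61 in TIL1. Directions also reversed in MCM2 with all contexts of body plus 1 kb (0.77) and in MCM6 with all listed sites (-1.07). Taking sites with 5 reads in a library whatever the other libraries listed gave -3.54 in MCM2, -2.46 in MCM3, -4.37 in MCM5, -6.89 in MCM6, -7.67 in TIL1 and a median of -4.91. The mean of site levels gave -4.95 in MCM5. The listed share with at least 10 reads was 21.6% in MCM2, 20.3% in MCM3, 12.97% in MCM4, 24.5% in MCM5, 15.8% in MCM6, 11.8% in MCM7, 13.1% in ICU2 and 20.7% in TIL1, and with at least 5 reads 28.2% in MCM3 and 32.1% in TIL1. The cause of these shifts was not tested. The other 102 of 157 alternatives kept direction and call, moved within the replicate spread or gave a count near the main one. An example of such a count is 537 gene bodies called with the block, against 672. A kept direction and call allowed much smaller values, such as -0.50 points in ICU2 with at least 10 reads, against -5.36. Depth, with a median of 10 to 12 reads per site and library, limits single sites and windows.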
